A study of Mus musculus with 6 samples.

Results

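Gm2022, Gm2016, Gm5662 and Gm8300 are 4 near-identical genes that lie on mouse chromosome 12 and encode proteins like the translation initiation factor eIF1A. They were taken by symbol from a table of 19467 genes, and all 4 were found and passed the filter on low counts. The libraries were made from E14Tg2A cells, a line of mouse embryonic stem cells grown in 15% serum with leukaemia inhibitory factor. A LINE1 ASO arm received an antisense oligonucleotide directed at LINE1 RNA, and an RC ASO arm received the control oligonucleotide that the labels call RC. Both arms had 3 libraries, and both shared the same handling: 5 nmol of Lissamine-labelled oligonucleotide delivered by nucleofection, 48 h of recovery, sorting of 300000 fluorescent cells and RNA extraction. Gene-assigned reads numbered 26633433 to 31704616 per library in the LINE1 ASO arm and 19954026 to 29092272 in the RC ASO arm. The line name is the only genotype given, nothing says that the 3 libraries of an arm came from separate cultures, and the p-values therefore cover the variation among these 6 libraries only, of which part or all may be technical.

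eIF1A binds the small ribosomal subunit together with eIF1, keeps the preinitiation complex open for scanning along the messenger RNA, and later contacts eIF5B when the large subunit joins. Mouse cells in general make it from Eif1a and Eif1ax. The Eif1a-like genes of chromosome 12 are known instead as transcripts of the 2-cell embryo, the stage at which the mouse zygotic genome becomes active. A small fraction of the cells in an embryonic stem cell culture, called 2-cell-like cells, express genes of this stage together with the endogenous retrovirus MERVL.

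The copies are shown side by side because their letters limit how far their reads can be told apart. Each coding sequence is 435 bases long and encodes 144 amino acids, and the 4 differ from one another at 12 of these 435 positions. Bases 241 to 435, counted from the A of the start codon, hold 9 of the 12. They are given here 5′ to 3′ on the coding strand from the GENCODE M21 transcripts (build GRCm38, chromosome 12), in lower case, with every base at which any of the 4 copies differs in capitals.
Gm2022: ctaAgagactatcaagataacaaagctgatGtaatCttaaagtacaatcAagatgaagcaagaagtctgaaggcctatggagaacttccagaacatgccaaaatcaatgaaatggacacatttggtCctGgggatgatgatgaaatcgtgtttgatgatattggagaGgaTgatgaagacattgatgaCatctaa
Gm2016: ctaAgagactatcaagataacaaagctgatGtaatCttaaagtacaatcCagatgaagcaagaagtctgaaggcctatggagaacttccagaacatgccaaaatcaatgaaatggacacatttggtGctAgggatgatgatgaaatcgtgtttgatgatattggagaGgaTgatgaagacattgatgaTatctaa
Gm5662: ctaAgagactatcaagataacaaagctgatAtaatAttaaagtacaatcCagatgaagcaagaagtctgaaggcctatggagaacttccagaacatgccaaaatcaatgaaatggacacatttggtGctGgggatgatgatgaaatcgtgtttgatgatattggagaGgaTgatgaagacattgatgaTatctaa
Gm8300: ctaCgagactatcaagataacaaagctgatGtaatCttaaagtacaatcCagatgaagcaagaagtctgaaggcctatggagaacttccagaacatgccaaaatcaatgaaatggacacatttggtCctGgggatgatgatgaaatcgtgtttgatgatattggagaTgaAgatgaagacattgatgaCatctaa
Against Gm2022, the copy Gm2016 carries A290C, C367G, G370A and C429T in this stretch, where the first letter is that of Gm2022. Gm5662 carries G271A, C276A, A290C, C367G and C429T. Gm8300 carries A244C, A290C, G408T and T411A. Over the whole coding sequence Gm2016 differs from Gm2022 at 5 positions, and Gm5662 and Gm8300 each differ from it at 7.

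Identity between the coding sequences of any pair of the 4 copies ran from 98.2% to 99.1%. Their proteins, compared after translation of these coding sequences, differed pairwise at 2 to 4 residues. The most alike pair was Gm2016 and Gm5662, with 4 base differences. The coding sequences shared 94.0% to 94.9% of aligned bases with Eif1a, and 84.8% to 85.1% with Eif1ax. For Eif1a the longest annotated coding sequence was used, of 765 bases and 254 amino acids. In the M21 annotation the coding sequence of each copy lies within 1 exon, and that of Eif1ax is spread over 7. This longest coding sequence of Eif1a is spread over 3, and the exons of its form of 144 amino acids were not examined. Gm8300, Gm2016 and Gm5662 have a transcript model of 2 exons, 1873, 1766 and 1840 bases long, that includes untranslated sequence, whereas the model of Gm2022 is its 435 coding bases alone.

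Short sequences from the copies are largely shared. Of the 50-base words in the Gm2016 transcript 81.3% also occurred in transcripts of other genes, as did 77.9% for Gm5662 and 97.2% for the coding-only model of Gm2022. Gm8300 stood apart, with 26.6% of its words shared over the whole transcript and 87.0% within the coding sequence. How the authors' counting treated reads that fit several genes is not given in the sources used here, so the value of each single copy is uncertain, and the sum of the 4 is given beside them. A word length of 50 was chosen for this count, since the read length is not given either.

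All 4 copies rose in the LINE1 ASO arm, by 7.99-fold to 10.4-fold. The test was edgeR's quasi-likelihood F test over 14725 genes with Benjamini-Hochberg adjustment and a call at an adjusted p under 0.05, and 4.93% of those genes were called higher. Values per library are CPM, the usual count of a gene relative to the size of its library, with library sizes scaled by TMM, a correction for differences in composition. Fold changes are those of the fit.

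Gm2022 stood at 37.5, 19.6 and 21.7 CPM in LINE1 ASO replicates 1, 2 and 3, against 2.55, 2.29 and 2.71 CPM in RC ASO replicates 1, 2 and 3. These values rest on 1217, 609 and 591 reads in the LINE1 ASO libraries and 49, 61 and 76 in the RC ASO libraries. The lowest LINE1 ASO library was thus 7.23 times the highest RC ASO library, and replicate 1 was the highest of its arm. The log2 fold change was 3.38 ± 0.28 (SE), a 10.4-fold increase, at an edgeR quasi-likelihood adjusted p of 0.00329.

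Gm8300 stood at 29.8, 15.9 and 17.6 CPM in LINE1 ASO replicates 1, 2 and 3, against 2.24, 1.69 and 2.21 CPM in the RC ASO replicates. The arms were separated by 7.11 times, and the order of the LINE1 ASO libraries was that of Gm2022. The log2 fold change of Gm8300, the copy with the lowest share of shared words over its whole transcript, was 3.37 ± 0.29 SE by edgeR, with a quasi-likelihood adjusted p of 0.00329.

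Gm2016 had the fewest reads. It stood at 7.55, 4.51 and 5.03 CPM in LINE1 ASO replicates 1, 2 and 3, against 0.729, 0.451 and 0.643 CPM in the RC ASO replicates, which rest on 14, 12 and 18 reads. The arms did not overlap, with a gap of 6.19 times between the nearest libraries. The log2 fold change was 3.24 ± 0.30 (SE), a 9.44-fold increase, at an edgeR quasi-likelihood adjusted p of 0.00368.

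Gm5662 had the smallest increase and the widest error. It stood at 11.1, 4.51 and 5.77 CPM in LINE1 ASO replicates 1, 2 and 3, against 0.781, 1.09 and 0.786 CPM in the RC ASO replicates. Its RC ASO replicate 2 was the highest of the control libraries, whereas the other 3 copies were lowest there, and the nearest libraries of the arms were 4.14 times apart. The log2 fold change was 3.00 ± 0.39 (SE), at an edgeR quasi-likelihood adjusted p of 0.00757. Without RC ASO replicate 3 the adjusted p was 0.0532, at a log2 fold change of 2.88.

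**Figure D1:**
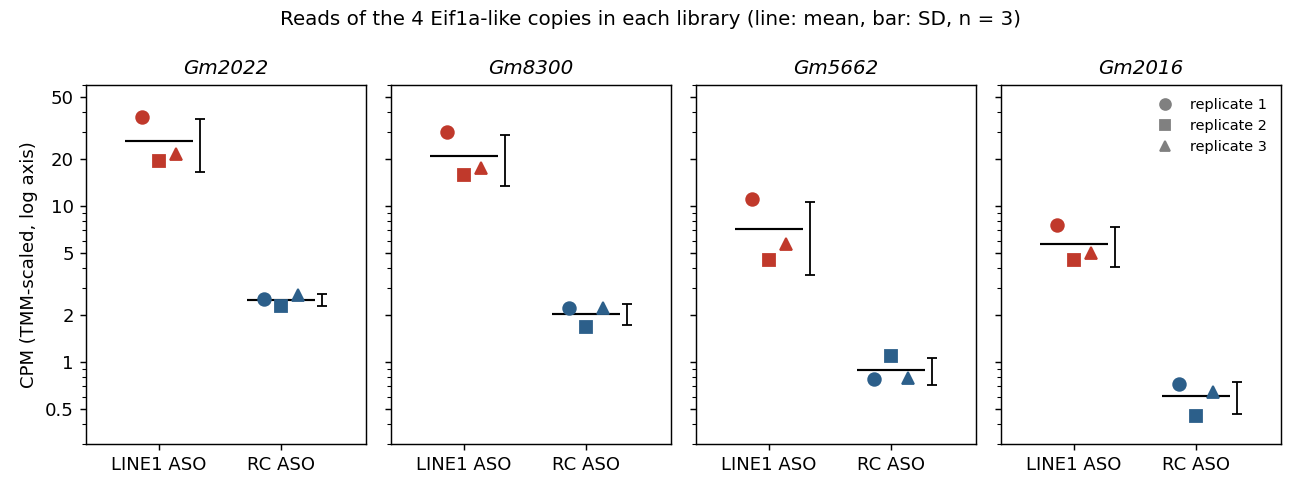
CPM of each copy in each library on a log axis, with 1 panel per copy, LINE1 ASO libraries in red and RC ASO libraries in blue; horizontal lines are means and bars are SD (n = 3 each), and symbols mark replicate numbers. In every panel the lowest LINE1 ASO library lies above the highest RC ASO library, by 4.14 to 7.23 times.

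Every LINE1 ASO library was above every RC ASO library for 4 of the 4 copies, which was the case for 16.8% of all genes tested. The median log2 fold change of the 4 copies was 3.30, against 0.01 over the 14725 genes. By size of the log2 fold change they ranked between 84 and 117 among those genes. For these copies the highest RC ASO library was 1.18 to 1.62 times the lowest. LINE1 ASO replicate 1 was 1.58 to 2.16 times the mean of LINE1 ASO replicates 2 and 3. These are unlike measures, so they do not compare the spread of the arms.

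**Figure D2:**
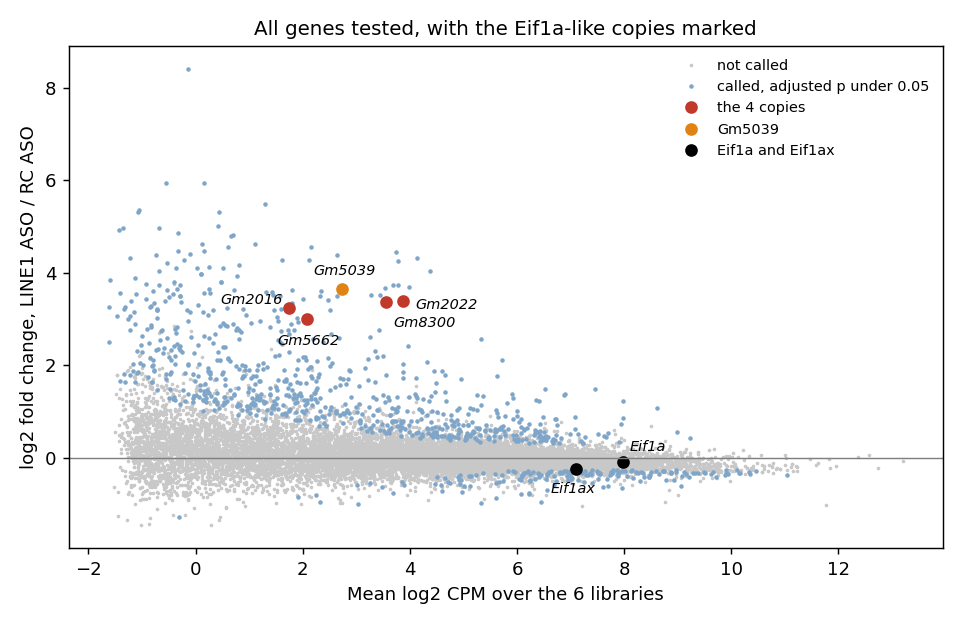
Log2 fold change (LINE1 ASO over RC ASO) against mean log2 CPM over the 6 libraries, 1 point per gene tested; grey points were not called and blue points were called at an adjusted p under 0.05. The 4 copies (red) lie between 3.00 and 3.38, close to Gm5039 (orange) at 3.64, and Eif1a and Eif1ax (black) lie at -0.09 and -0.24.

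The sum of the copies does not depend on how reads were divided among them. Reads exchanged with genes outside the 4, or left uncounted, could still change it. For Gm2022, 97.2% of the 50-base words occurred in other genes and 69.9% in the other copies. The 4 together had 2790, 1383 and 1363 reads in LINE1 ASO replicates 1, 2 and 3, against 121, 147 and 178 reads in RC ASO replicates 1, 2 and 3. Scaled, the sum was 60.2 ± 22.5 CPM in the LINE1 ASO arm and 6.06 ± 0.467 CPM in the RC ASO arm (SD, n = 3 each), which is a ratio of 9.93. The lowest LINE1 ASO library was 7.01 times the highest RC ASO library. Between libraries of the same replicate number the ratio was 13.6, 8.07 and 7.88 for numbers 1, 2 and 3. In bulk RNA more cells that express these genes and more RNA per such cell cannot be told apart.

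The share of the reads that each copy took varied between libraries, most of all for Gm5662, at 10.1% to 19.7%. Gm2022 took 43.6%, 44.0% and 43.4% of the summed reads in LINE1 ASO replicates 1, 2 and 3, against 40.5%, 41.5% and 42.7% in the RC ASO replicates. Gm8300 took 34.7% to 35.7% in the LINE1 ASO arm and 30.6% to 35.5% in the RC ASO arm. Gm2016 took 8.78% to 10.1% in the LINE1 ASO arm and 8.16% to 11.6% in the RC ASO arm. Gm5662 took 10.1% to 12.9% in the LINE1 ASO arm, against 12.4%, 19.7% and 12.4% in RC ASO replicates 1, 2 and 3, so that RC ASO replicate 2 stood highest. Each copy was tested against the other 3 summed, on the log2 ratio, by a two-sided exact permutation test adjusted over the 4 copies, which cannot go below p = 0.1 before adjustment. Gm2022 was the only copy whose share did not overlap between the arms, with a difference of 0.12 (exact permutation p = 0.1, adjusted p = 0.4). Gm5662 had a difference of -0.39 (exact permutation p = 0.3), Gm8300 of 0.10 (exact permutation p = 0.5) and Gm2016 of -0.04 (exact permutation p = 0.9). These shares are of reads and not of molecules, since the copies differ in the sequence that can be assigned to them. Per kilobase of M21 transcript Gm8300 averaged 11.3 ± 4.05 CPM in the LINE1 ASO arm and 1.09 ± 0.165 in the RC ASO arm. On the same scale Gm5662 averaged 3.88 ± 1.91 in the LINE1 ASO arm and 0.481 ± 0.0960 in the RC ASO arm, and Gm2016 averaged 3.23 ± 0.920 and 0.344 ± 0.0807 (SD, n = 3 each). The order of the arm means on it, Gm8300 before Gm5662 and Gm2016, was the same in both arms. The last pair differed by less than the SD of Gm5662 in the LINE1 ASO arm. In LINE1 ASO replicate 2 Gm5662 and Gm2016 each had 140 reads, so the shorter Gm2016 came before Gm5662 there. This scale divides by the whole transcript and not by the sequence that can be assigned to a copy. Words shared with other genes were 26.6% of the transcript words for Gm8300, 77.9% for Gm5662 and 81.3% for Gm2016. The order therefore need not be that of molecules. Gm2022 has no full transcript model in this annotation and was left out of this scale.

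**Figure D3:**
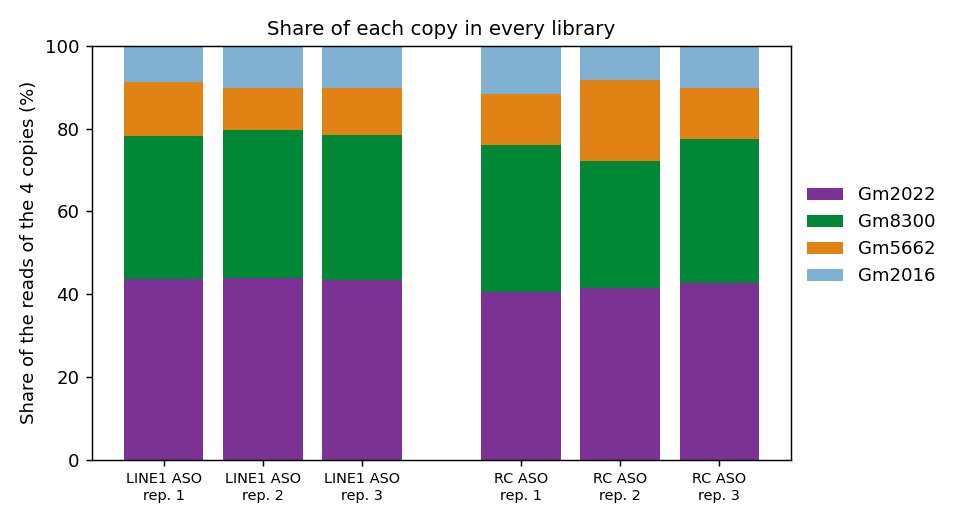
Share of the reads of the 4 copies that each copy took in each library, in percent, as stacked bars with LINE1 ASO libraries on the left and RC ASO libraries on the right. Gm2022 makes up 40.5% to 44.0% of every bar, and the share of Gm5662 is largest in RC ASO replicate 2, at 19.7%.

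The copies are part of a larger family. By protein sequence, 16 genes of chromosome 12 in M21 encode an eIF1A-like protein of 144 residues that is at least 94.4% identical to the nearest of the 4, and each has its coding sequence in 1 exon. Of these 16, the count table holds 6: the 4 copies, Gm5039 and BB287469. Gm5039, which RefSeq lists as a transcribed pseudogene and M21 as protein coding, stood at 18.5, 8.32 and 8.81 CPM in LINE1 ASO replicates 1, 2 and 3, against 1.30, 0.714 and 0.893 CPM in the RC ASO replicates. It rose 12.5-fold (edgeR quasi-likelihood log2 fold change 3.64 ± 0.40 SE, adjusted p = 0.00450), and 9.19% of the 50-base words of its transcript occur in the 4 copies. BB287469 had 4, 2 and 1 reads in LINE1 ASO replicates 1, 2 and 3 and 0, 1 and 0 reads in RC ASO replicates 1, 2 and 3, too few to be tested.

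The genes for canonical eIF1A did not pass the unpaired edgeR test. Eif1a stood at 243 ± 18.7 CPM in the LINE1 ASO arm and 258 ± 26.7 CPM in the RC ASO arm (SD, n = 3 each), and its log2 fold change was -0.09 ± 0.10 SE by edgeR, with a quasi-likelihood adjusted p of 0.645. Eif1ax stood at 125 ± 1.92 CPM in the LINE1 ASO arm and 148 ± 5.21 CPM in the RC ASO arm, with a log2 fold change of -0.24 ± 0.06 and no overlap of the arms (edgeR adjusted p = 0.0662). Eif1ax was called lower by DESeq2 (adjusted p = 0.00887), and by edgeR when the replicate number was a block (edgeR quasi-likelihood adjusted p = 0.00173). It was also called lower without both replicate 2 libraries (edgeR quasi-likelihood adjusted p = 0.0278). The log2 ratio of each copy to Eif1a or to Eif1ax was 3.01 to 3.57 higher in the LINE1 ASO arm in the 8 comparisons made. The arms were separated in each (two-sided exact permutation p = 0.1, the smallest that 3 against 3 libraries allow, and 0.1 after adjustment over the 8). These ratios follow from the fold changes given above, so their test is no further evidence. In the Eif1a transcript compared 2.66% of the 50-base words occur in the 4 copies, and in that of Eif1ax none do. That share is not negligible, since Eif1a stood at 258 CPM in the RC ASO arm and the summed copies at 6.06 CPM. The part of Eif1a reads in the values of the copies was not tested.

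Factors that act with eIF1A on the ribosome were lower or not called. Of 26 tested partners, 0 rose and 5 fell by edgeR's quasi-likelihood test, where 1.17% of all genes were called lower, and the median log2 fold change was -0.15. At an unadjusted p under 0.05 and by DESeq2 the number that rose was 0 as well. Those that fell were Eif2s2, a subunit of the factor that brings the initiator transfer RNA, and Eif3e, Eif3h, Eif3i and Eif3m, subunits of the scaffold factor eIF3. Eif2s2 averaged 723 ± 40.1 CPM in the LINE1 ASO arm and 957 ± 24.6 CPM in the RC ASO arm (SD, n = 3 each), and its log2 fold change was -0.41 ± 0.07 (SE). Eif5b, which promotes subunit joining, had a log2 fold change of 0.02 and Eif1 of 0.14, and neither was called. The number that fell was 0 without LINE1 ASO replicate 3, without RC ASO replicate 1 or without RC ASO replicate 3, and 1 without LINE1 ASO replicate 1. It was 17, with 1 higher, when the replicate number was a block, 15 without both replicate 2 libraries, 8 by DESeq2 and 2 with library totals. The share of all genes called lower in the same fits was 16.1% with the block, 8.30% without both replicate 2 libraries, 4.07% by DESeq2 and 0.340% with library totals. It was 0.0468% without LINE1 ASO replicate 3 and 0.0878% without LINE1 ASO replicate 1. Without RC ASO replicate 1 it was 0.0133%, and without RC ASO replicate 3 it was 0.0267%. The block called 17.6% of all genes higher.

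Among the 18 genes of the count table examined around the copies, the 5 Eif1a-like genes that were tested rose, as did 2 transcribed pseudogenes. Of all genes tested, 4.93% were called higher. Those tested here were the 4 copies, 1 of the 4 other genes between them and 7 of the 10 genes outside. In RefSeq order the 4 copies run Gm8300, Gm2016, Gm2022 and Gm5662, the first 3 on the plus strand and Gm5662 on the minus strand, and 55 annotated entries lie from the first to the last, of which the count table holds 8. Gm1995, a transcribed pseudogene next to Gm2016 in the table, had 213, 110 and 108 reads in LINE1 ASO replicates 1, 2 and 3, against 8, 8 and 14 reads in RC ASO replicates 1, 2 and 3. It rose 11.5-fold (edgeR quasi-likelihood log2 fold change 3.52 ± 0.35 SE, adjusted p = 0.00394). Gm7104, a transcribed pseudogene between Gm5662 and Gm5039, had 28, 12 and 17 reads in LINE1 ASO replicates 1, 2 and 3 and 1, 1 and 0 reads in RC ASO replicates 1, 2 and 3 (log2 fold change 4.31 ± 0.70 SE, adjusted p = 0.0162 by the same edgeR test). Without LINE1 ASO replicate 1 or 3, or without RC ASO replicate 1 or 3, Gm7104 had adjusted p of 0.0503 to 0.0762 by that test. None of the 50-base words of Gm1995 or Gm7104 occur in the 4 copies.

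The tested genes that flank the cluster were not called. On one side these were Alkbh1, a nucleic acid demethylase (log2 fold change -0.07), Nrp (-0.09), 1810035L17Rik, which is now named Slirp and encodes an RNA-binding protein of mitochondria (-0.16), and the splicing factor gene Snw1 (0.07). On the other side it was the kinase-like gene Adck1 (0.13). The lowest adjusted p of these 5 was 0.456 by edgeR's quasi-likelihood test. Oog1 and Gm10436, within the cluster, had at most 1 read in any library and were not tested. Mir3068, 3200001D21Rik and Nrxn3, outside it, had at most 11 reads in any library and were not tested either.

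**Figure D4:**
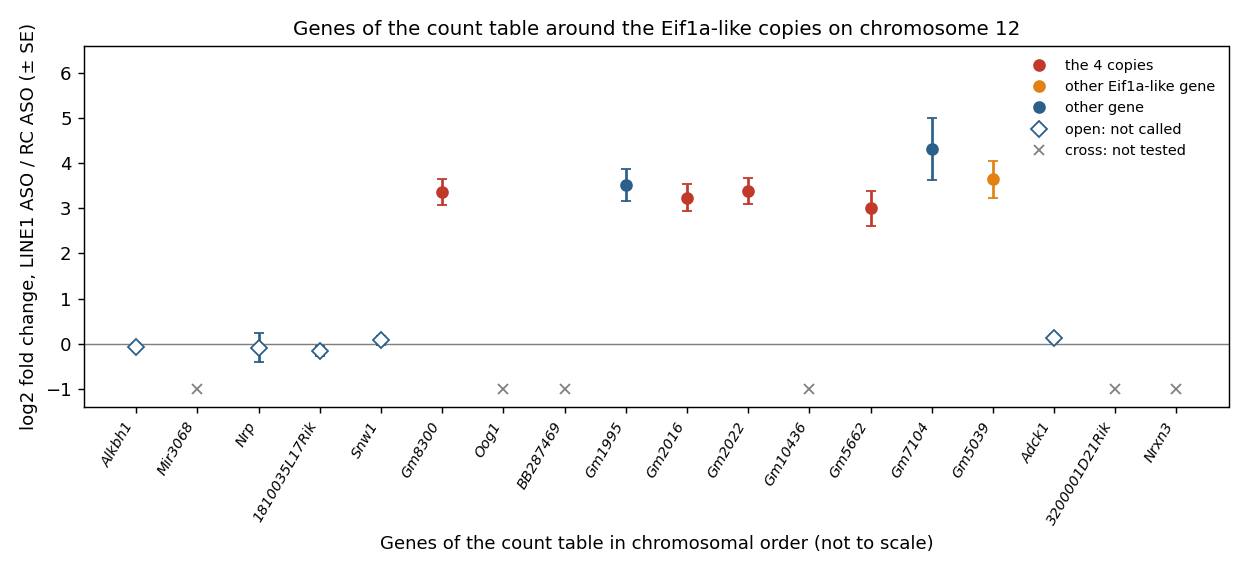
Log2 fold change with SE (LINE1 ASO over RC ASO) of the genes of the count table around the copies, in the order of chromosome 12 and not to scale; red marks the 4 copies, orange another Eif1a-like gene, blue other genes, open diamonds genes not called and crosses, drawn at a fixed height, genes not tested. The called genes lie between 3.00 and 4.31, and the tested flanking genes between -0.16 and 0.13.

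Other genes of the 2-cell stage moved in the same direction. Of 28 tested genes of that stage outside the family, 22 rose by edgeR's quasi-likelihood test, against 4.93% of all genes, and their median log2 fold change of 3.64 lay near the 3.30 of the 4 copies. Members of the list were picked in part from earlier knowledge of such cells and of these data, so the list is no independent evidence of its direction. Zscan4d, a gene used to mark 2-cell-like cells, rose 20.1-fold, and Tcstv1, a 2-cell-stage gene that can influence telomere length, rose 13.4-fold. Pramef12 (log2 fold change -0.03) and AU018091 (-0.16) were among the 6 that were not called. The count was 12 of 29 tested without RC ASO replicate 1, where 1.12% of all genes were called higher. It was also 12 of 29 without RC ASO replicate 3, where 1.06% of all genes were. With the replicate number as a block 25 were called higher and 1 lower, AU018091, where 17.6% of all genes were called higher and 16.1% lower.

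Reads of the MERVL retrovirus were also more abundant in every LINE1 ASO library than in any RC ASO library. MERVL-int, the internal part of that retrovirus, stood at 3794, 1325 and 2083 CPM in LINE1 ASO replicates 1, 2 and 3, against 453, 350 and 461 CPM in the RC ASO replicates. Its terminal repeat MT2_Mm stood at 469, 199 and 253 CPM in the LINE1 ASO replicates, against 66.3, 59.7 and 70.6 CPM in the RC ASO replicates. Replicate 1 was the highest LINE1 ASO library and replicate 2 the lowest in both repeats and in the summed copies. The part of these repeats in the values of the copies was not tested.

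The profile of the summed copies over the 6 libraries was closest to that of Gm1995. Likeness was the Euclidean distance between profiles of log2(CPM + 0.1), each centred on its own mean, over the 13298 genes whose mean log2 CPM was not below 0. Gm1995 lay at a distance of 0.279, against a median of 4.05 over all genes ranked. Other near profiles were those of B020031M17Rik at 0.317, Them5, an acyl-CoA thioesterase gene, at 0.367, Dub1a, a deubiquitinase gene, at 0.386, and Gm13119 at 0.397. Pearson's r with the sum was 0.996 to 0.998 for these 5 over 6 libraries, which fall into the 2 arms, so the values only describe the likeness. Gm5039 ranked 13. Among the copies themselves, Gm2022 lay nearest to the sum of which it is a part, at 0.0751, and Gm5662 farthest, at 0.785.

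**Figure D5:**
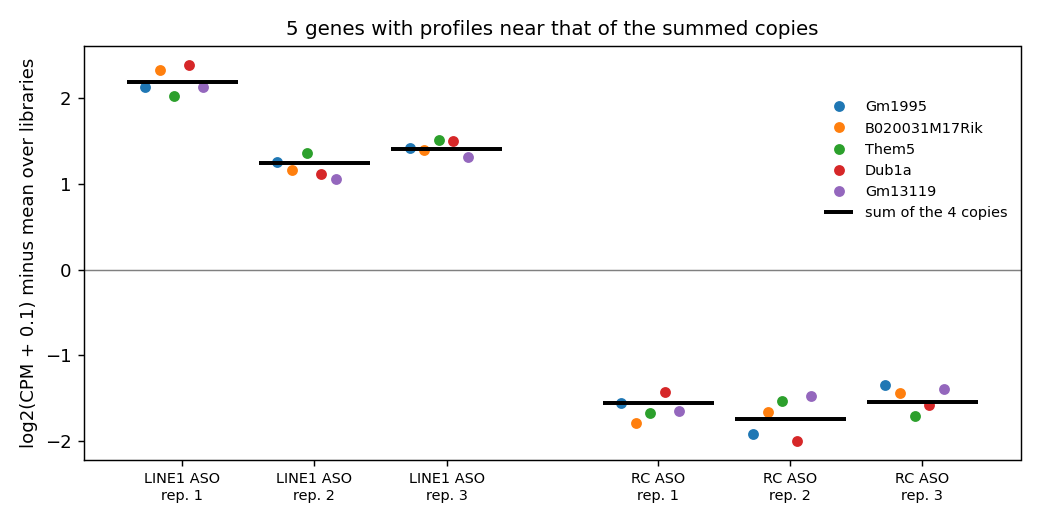
Log2(CPM + 0.1), centred on each gene's mean, in each library for the sum of the 4 copies (black lines) and for 5 genes with profiles near it (points), with LINE1 ASO libraries on the left. LINE1 ASO replicate 1 is the highest library for the sum and for each of the 5 genes.

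The libraries carried the markers of embryonic stem cells. The 8 markers of that list summed to 3681 to 4508 CPM per library in the LINE1 ASO arm and 4958 to 5437 CPM in the RC ASO arm. One of them, Pou5f1, fell (edgeR quasi-likelihood log2 fold change -0.36 ± 0.07 SE, adjusted p = 0.0355), and the other 7 were not called. All 8 had a log2 fold change below 0, from -0.43 to -0.20, and 5 were lower at an unadjusted p under 0.05. Pou5f1 was not called without LINE1 ASO replicate 1 or 3, without RC ASO replicate 1 or 3, or with library totals (edgeR adjusted p = 0.0502). Of the 8, DESeq2 called 3 lower, the fit without both replicate 2 libraries 5, and the fit with the replicate number as a block 7. Of 6 tested primitive endoderm markers 2 rose, Pdgfra and Cubn, and the list summed to 25.1 to 43.1 CPM per library in the LINE1 ASO arm and 19.5 to 21.9 CPM in the RC ASO arm. Neither of these 2 was called without LINE1 ASO replicate 1 or 3, or without RC ASO replicate 1 or 3, and Cubn was not called without RC ASO replicate 2. Gata4 was called higher as well with the replicate block and without both replicate 2 libraries. Of 6 germ cell markers 1 rose, Tex101, with sums of 109 to 128 CPM in the LINE1 ASO arm and 98.3 to 125 CPM in the RC ASO arm. Mael, another of them, was also called higher by DESeq2, with the replicate block, with library totals, without RC ASO replicate 2 and without both replicate 2 libraries. None of the 7 trophectoderm and 5 fibroblast markers tested was called by edgeR, while 2 and 1 of them were higher at an unadjusted p under 0.05. DESeq2 called 1 trophectoderm and 0 fibroblast markers higher, and edgeR with the replicate block called 4 trophectoderm markers higher, 1 fibroblast marker higher and 2 fibroblast markers lower. Trophectoderm markers summed to 281 to 329 CPM in the LINE1 ASO arm and 269 to 309 CPM in the RC ASO arm, and fibroblast markers to 34.5 to 45.9 CPM in the LINE1 ASO arm and 38.8 to 52.9 CPM in the RC ASO arm. Of all genes, the main fit called 4.93% higher and 1.17% lower, DESeq2 6.97% and 4.07%, and the replicate block 17.6% and 16.1%. These shares were 6.66% and 0.340% with library totals, and 6.92% and 3.18% without RC ASO replicate 2. Without both replicate 2 libraries they were 12.2% and 8.30%. Without replicate 1 or 3 of either arm they were 1.06% to 1.93% and 0.0133% to 0.0878%. No marker of these lists was at 0 in all libraries, while Sox17, Foxa2, Elf5, Postn, Lum, Dcn and Twist2 stayed under 1 CPM in each. The part of these cell types in the values of the copies was not tested.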

How the data were processed

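The deposited tables hold raw read counts per gene symbol (19467) and per repeat name (1217), with 1 column per library, and no replicate was pooled. The build is mm9 and the tools are HTSeq 0.6.1p1, TopHat2 2.0.9, DESeq2 1.12.3 and R 3.3.0, per the submitters' processing notes. Strandedness, annotation release and the handling of multiply matching reads were not given in the sources used here, and near-identical copies could lose or exchange reads. Counts were analysed with edgeR 4.0.16 in R 4.3.3: filterByExpr (minimum count 10, minimum total 15), TMM, robust quasi-likelihood F tests and Benjamini-Hochberg adjustment over 14725 genes. CPM used the TMM-scaled gene totals, also for repeats. The SE was taken as the absolute log2 fold change over the square root of the F statistic. On simulated counts of these 14725 genes the test recovered 78% of 100 genes changed 2-fold and 99% of 100 changed 4-fold. The simulated libraries were drawn independently, without the shared deviation of same-numbered libraries described below, so these rates need not hold for the real counts.

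Sequences, exons and families came from GENCODE M21 and gene order from RefSeq, both on GRCm38, so no coordinates are given. Eif1a-like genes were those whose translated coding sequence was at least 60% identical to a copy over at least 80% of its length. This replaced a protein table named in the plan that was not used here. Promoter sequences were searched for GATTNAATC on both strands, which 0.268% of 32851 promoters held, for TATAAA (13.6%) and for CCAAT (37.4%). Of the 5 family promoters with an entry, none of them of the 4 copies, 0 held the first, 1 the second and 2 the third.

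The named genes are the 4 copies, their family, canonical eIF1A genes, listed partners and 2-cell-stage genes, the nearest 5 genes of the table on either side of a copy and the 6 nearest profiles, of which 1 is not reported here. Members and lists were chosen with earlier results of these data known. Replicates are numbered 1 to 3 in each arm, without a statement of what equal numbers have in common. Same-numbered libraries deviated together from their arm means (r = 0.436, 0.659 and 0.394 for numbers 1, 2 and 3, across 14725 genes), which meets the limit of 0.1 set for pairing. Of the unlike-numbered pairs, LINE1 ASO 1 with RC ASO 3 (r = 0.220) and LINE1 ASO 3 with RC ASO 1 (r = 0.120) also exceeded it. The rest were negative (r = -0.475 to -0.362). The p-values printed are nevertheless from unpaired tests unless a block is named. A fit with the replicate number as a block was an alternative, beside DESeq2 1.42.0, RLE factors, library totals, other filters and leaving out each library. Leaving out both replicate 2 libraries was added after seeing the data.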

Additional observations from a re-analysis of the deposited data

How the results depend on the processing

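The 4 copies kept their direction in every alternative, and their calls in all but 1. With 1 library left out the log2 fold change ranged from 3.02 to 3.52 for Gm2022, 2.96 to 3.35 for Gm2016, 2.50 to 3.21 for Gm5662 and 3.02 to 3.50 for Gm8300. Gm5662 did not pass without RC ASO replicate 3, at 2.88 (edgeR quasi-likelihood adjusted p = 0.0532), so 3 to 4 copies were called in these fits. The adjusted p over all fits went up to 0.0289 for Gm2022 and Gm8300 and 0.0303 for Gm2016. With the replicate block the values were 3.31, 3.20, 2.89 and 3.31 for Gm2022, Gm2016, Gm5662 and Gm8300, and no call of a copy changed. The log2 ratio of the sum ranged from 2.96 to 3.49 with 1 library left out, was 3.25 within replicate numbers, and 3.26 to 3.36 with 1 copy left out. The differences in share ranged with 1 library left out from 0.0928 to 0.158 for Gm2022, -0.187 to 0.0923 for Gm2016, -0.524 to -0.124 for Gm5662 and -0.00223 to 0.158 for Gm8300, so Gm2016 turned without LINE1 ASO replicate 1 (0.0366) or RC ASO replicate 1 (0.0923), and Gm8300 without RC ASO replicate 2 (-0.00223).

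Counts over all genes moved more than the copies. Against 726 higher and 173 lower, the replicate block called 2591 and 2373, DESeq2 called 599 lower and library totals 50 lower. Left-out libraries gave 158 to 1041 higher and 2 to 479 lower, with the fewest higher, 158, without RC ASO replicate 3. Without both replicate 2 libraries 1810 were higher and 1229 lower. Of all calls 80.8% were higher with TMM and 95.2% with library totals. The cause was not tested. RC ASO values of single copies rest on 12 to 76 reads, which limits their precision.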
